A study of Mus musculus with 6 samples.

Results

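The chaperone genes of mouse trigeminal ganglion were compared between mice treated with NTG and mice given vehicle. They comprised 76 of the 17524 genes in the deposited table. The genes were taken by a rule on symbol and gene type that uses no measured value, though the group itself was picked with earlier results of these data known: protein-coding genes whose symbol begins with Hspa, Hspb, Hspd, Hspe, Hsph, Hsp90, Dnaja, Dnajb or Dnajc, the Cct2 to Cct8 genes, and Tcp1, with Hspbap1 left out. By family these were 3 Hsp90 genes, 14 Hsp70 and Hsp110 genes and 2 genes of the mitochondrial chaperonin (Hsp60 and Hsp10). A further 6 Hspb genes were grouped by symbol as small heat shock proteins. There were also 4 Dnaja, 11 Dnajb and 26 Dnajc genes and 9 Cct genes. The remaining gene, Hspbp1, encodes a binding factor of Hsp70 and shares with the small heat shock proteins only the first letters of its symbol. The trigeminal ganglion holds the sensory neurons of the face and the meninges together with their glia. The NTG group was 3 libraries from wild-type (WT) mice treated with NTG, and the vehicle group 3 libraries from WT mice treated with vehicle. The labels do not spell out the abbreviation, which in migraine work commonly stands for nitroglycerin. The sources used here do not give strain, age, sex, dose, time after treatment or the number of mice behind a library. Whether each library is a separate mouse is not stated, and the p-values below therefore describe the scatter among these 6 samples, part of which may be technical.

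Chaperones bind proteins that are not in their folded state. Hsp70 proteins hold short unfolded stretches in a cycle driven by ATP, DNAJ proteins bring them their clients and trigger the cycle, and Hsp110 proteins and other exchange factors reset it. Hsp90 matures signalling proteins such as kinases and steroid receptors, the chaperonins enclose a client in a ring (Hsp60 with its lid Hsp10 in mitochondria, CCT in the cytosol), and small heat shock proteins hold clients without ATP. Some members are made at all times, such as Hspa8, while heat shock factor 1 induces others on stress, among them Hspa1a, Hspa1b, Dnajb1, Hspb1 and Hsph1. Stress of the endoplasmic reticulum (ER) induces Hspa5, Hsp90b1 and Dnajc3. In neurons, Hspa8 with the DNAJ proteins auxilin (Dnajc6) and cysteine string protein (Dnajc5) serves clathrin uncoating and synaptic vesicle release.

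Of the 76 genes, 28 rose in NTG and 3 fell, and 45 did not pass the test. All 76 reached a value of 1 in 3 or more libraries and were tested. Values are normalised reads, the deposited counts divided by a factor for each library, and a gene is said to have risen or fallen where limma-trend on log2(value + 1), fitted over 17475 genes, gave a Benjamini-Hochberg adjusted p under 0.05. Fold changes are NTG over vehicle and stand with their SE, and means with their SD over 3 libraries. Rises made up 36.8% of the members, beside 12.3% of all genes tested, and falls 3.95%, beside 13.5%. The 3 NTG values lay above the 3 vehicle values without overlap in 33 members and below them in 6, beside 19.7% and 20.0% of all genes. The median log2 fold change of the members was 0.07, beside 0.001 over all genes. Changes were small: among members that passed, log2 fold changes ran from -0.53 for Hspa1a to 0.58 for Hspa13, and 0 of the 76 passed when limma tested against a fold of 1.2. With each library left out in turn, 18 to 28 members rose and 2 to 4 fell, the 18 without NTG replicate 2. In all 6 such fits, 18 of the 28 rises and 2 of the 3 falls passed.

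**Figure D1:**
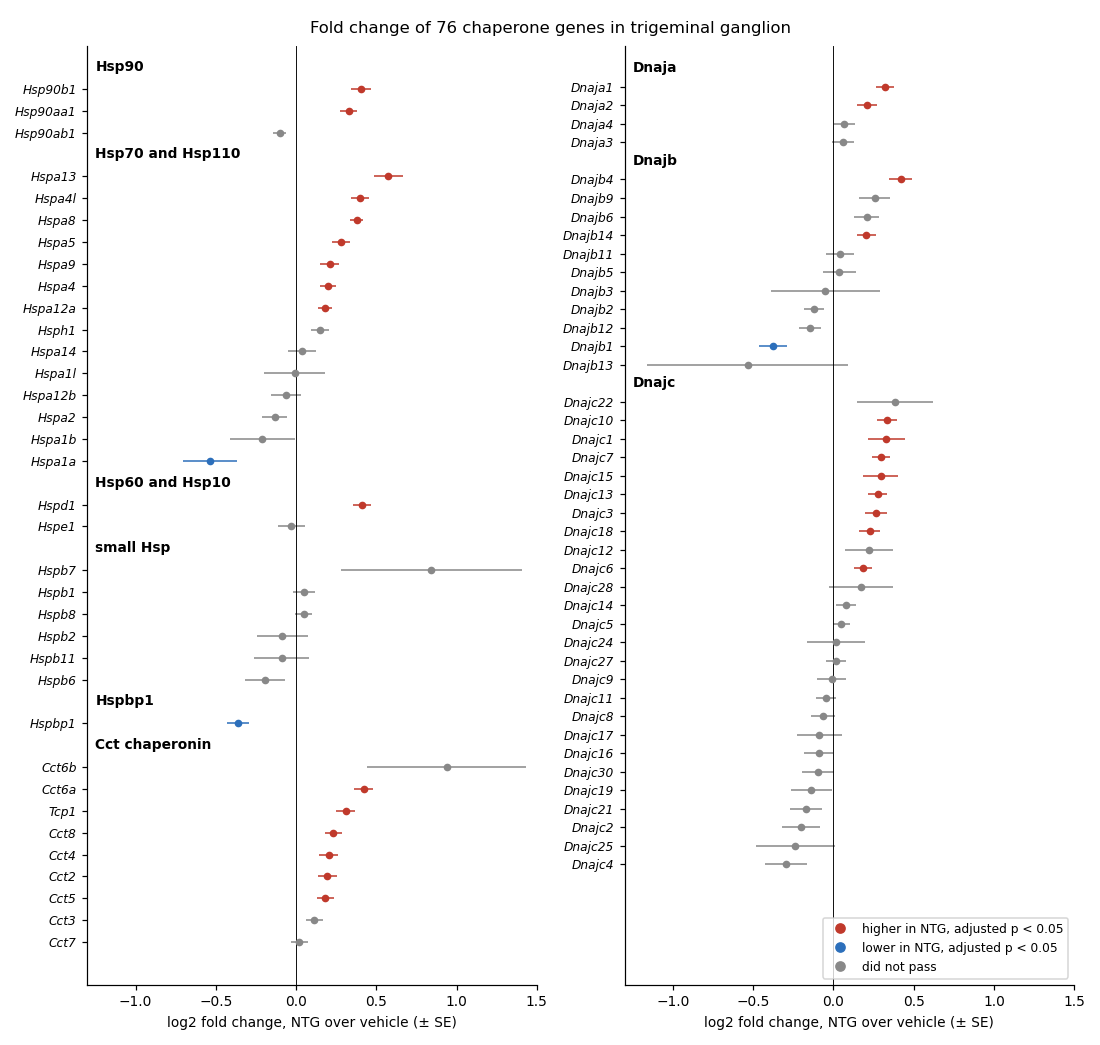
Log2 fold change of each of the 76 genes, NTG over vehicle, as points with SE bars (limma-trend, n = 3 libraries per group), grouped by family. Red points are the 28 rises and blue points the 3 falls; Hspa1a, Dnajb1 and Hspbp1 lie left of 0, and most Cct genes lie right of it.

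Transcript base composition differed between members that rose and members that fell. The libraries differed in how their values followed the GC content of transcripts: over 14932 coding genes the slope was -0.22, -0.17 and -0.08 log2 units per 10 percentage points in the 3 NTG libraries, and 0.11, 0.19 and 0.16 in the 3 vehicle libraries. In the third of members with the lowest GC content (39.0 to 46.7%), 17 of 25 rose and 0 fell, beside 34.4% and 1.69% of all coding genes in that range. In the middle range 10 of 25 rose and 0 fell, beside 11.9% and 3.96%. In the third with the highest GC content (51.0 to 61.7%), 1 of 26 rose, Hspa8, and 3 fell, beside 1.03% and 25%. Spearman's rho between GC content and log2 fold change was -0.52 across the 76 genes and -0.64 across the coding genes, which share these 6 libraries and are not independent. A smooth curve over GC content and transcript length was then fitted and subtracted in each library. After this removal 12 members rose and 3 fell, beside 4.15% and 5.25% of the 16278 genes then tested. Of the 28 rises 10 passed again, and of the 3 falls 1, Dnajb1. With a library left out as well, 6 to 12 members rose and 0 to 3 fell. The 7 rises without NTG replicate 3, the 6 without vehicle replicate 2, the 0 falls without NTG replicate 2 and the 1 fall without NTG replicate 3 or vehicle replicate 1 departed most from the fit with all 6 libraries. Hspb1 and Cct7 rose, and Dnajc2 and Dnajc19 fell, only after the removal. The cause of the trend was not tested. Values after the removal stand beside most gene results below; shares of reads are given as deposited.

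**Figure D2:**
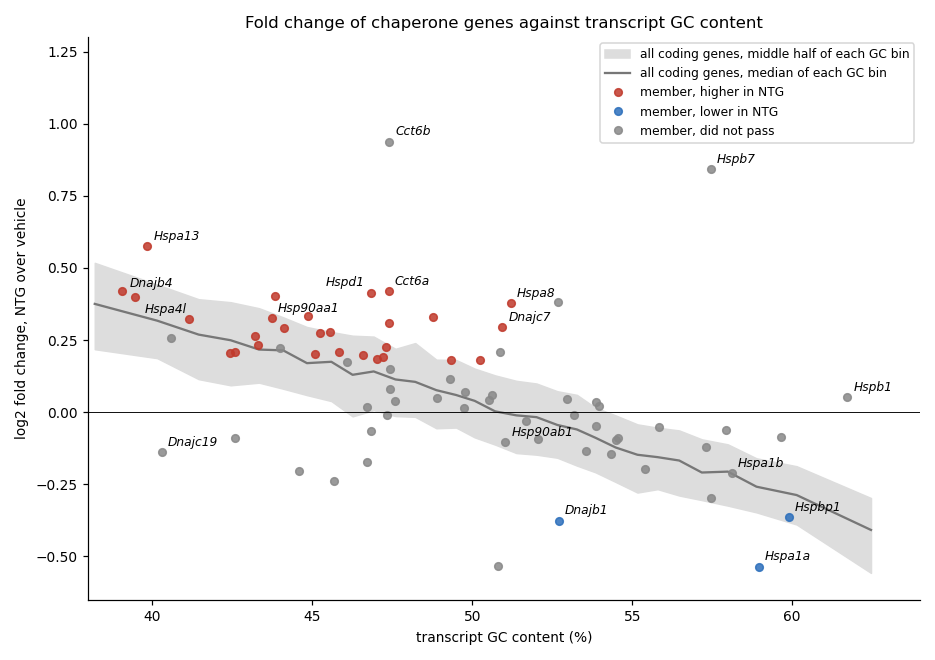
Log2 fold change (NTG over vehicle) against the GC content of the longest coding transcript, 1 point per member. The grey line and band give the median and the range between the quartiles of all coding genes in bins of GC content; Hspa8, Dnajc7 and Hspb1 lie above the band, and Dnajb1 below it.

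**Figure D3:**
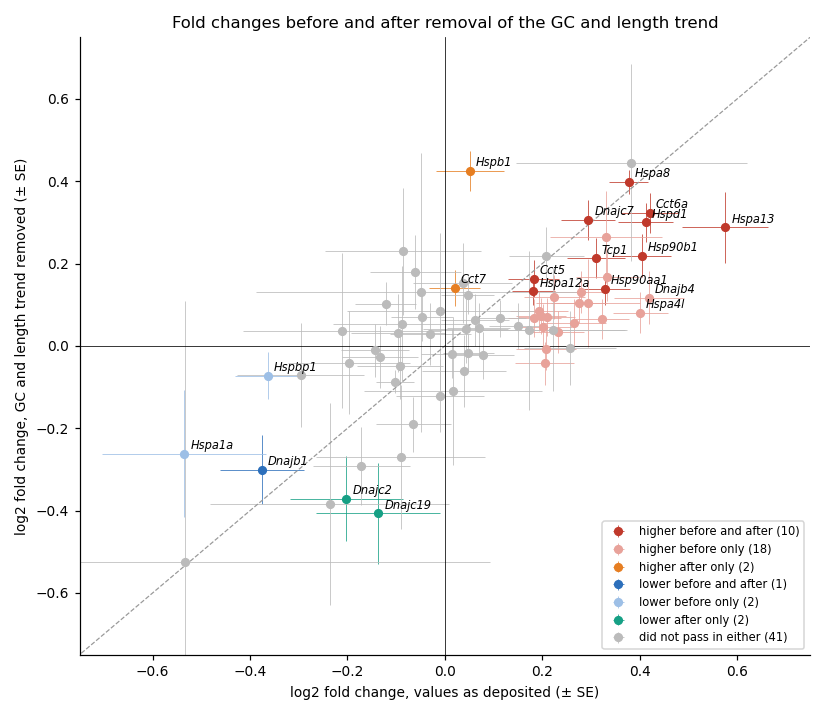
Log2 fold changes (± SE) of the members with the values as deposited (horizontal) and after removal of the trend over GC content and length (vertical), coloured by the calls of both fits. The 10 genes that rose in both fits include Hspa8, Hspd1, Cct6a and Dnajc7, Dnajb1 fell in both, and Cct6b, Hspb7 and some error bars lie outside the axes.

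The members drew more of the reads in NTG than in vehicle. They took 1.39, 1.35 and 1.36% of all reads in the 3 NTG libraries, against 1.23, 1.16 and 1.21% in the 3 vehicle libraries. Their Hsp70 and Hsp110 genes took 0.488, 0.485 and 0.482% in NTG, against 0.402, 0.377 and 0.398% in vehicle. The Hsp90 genes took 0.381, 0.349 and 0.363% in NTG, against 0.355, 0.333 and 0.344% in vehicle, so that for Hsp90 the groups overlapped. Hspa8, Hsp90aa1 and Hsp90ab1 together held 42.8% of the normalised reads of all 76 genes. Per kilobase of transcript these 3 also stood first, with means of 19372 normalised reads per kilobase for Hspa8, 17900.5 for Hsp90ab1 and 6515 for Hsp90aa1, followed by Hspb1 (3548), Hspa12a (2708) and Hspb8 (2623). At the other end stood Dnajb13, Hspb7 and Cct6b, with 3.48, 4.37 and 6.98 normalised reads per kilobase; Dnajb13 had 53 reads over all 6 libraries. Most rises were among abundant members. Of the 44 with a mean of at least 1000 normalised reads 25 rose and 2 fell, beside 22.8% and 23.7% of the coding genes at that level. Of the other 32 members 3 rose and 1 fell, beside 9.71% and 9.54% of the coding genes below that level.

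**Figure D4:**
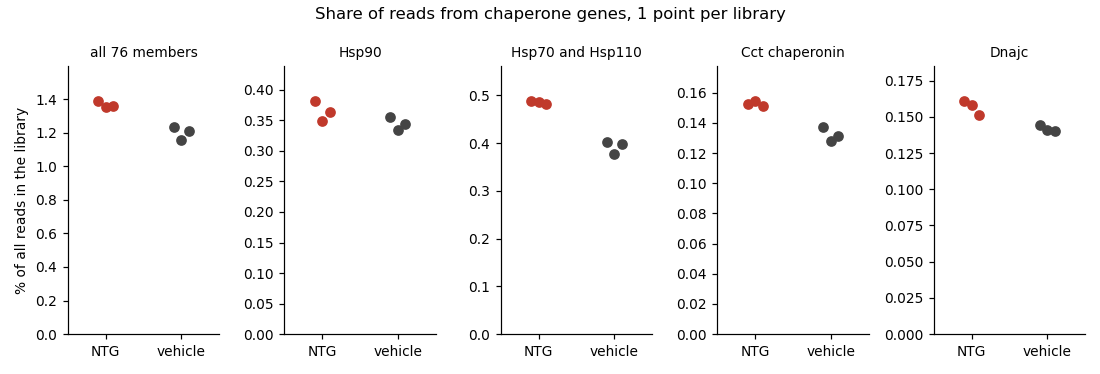
Share of all reads in each library (%, 1 point per library, axes from 0) taken by the 76 genes together and by 4 of the families. All 3 NTG points lie above all 3 vehicle points for the members together, Hsp70 and Hsp110, Cct and Dnajc, and the groups overlap for Hsp90.

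The Hsp70 family was led by Hspa8 (chromosome 9, 40801276 to 40805202, plus strand, GRCm38), the constitutive cytosolic Hsp70 and the most abundant member. Hspa8 had 51912, 52737 and 52544 normalised reads in the 3 NTG libraries, against 41869, 38739 and 40461 in the 3 vehicle libraries. The NTG values were close to each other and far above vehicle (log2 fold change 0.38 ± 0.04, limma adjusted p = 3.13e-06). Hspa8 has a GC content of 51.2%, and coding genes in the nearest bin had a median log2 fold change of -0.01 and an upper quartile of 0.11. Its rise was as large after the GC and length removal (0.40, limma adjusted p = 3.31e-09) and passed in all leave-one-out fits of both kinds. Hspa12a, a distant Hsp70 relative, had 16266, 17088 and 16158 normalised reads in the 3 NTG libraries, against 14454, 14556 and 14627 in the 3 vehicle libraries. The groups stood apart by a small step (log2 fold change 0.18 ± 0.04, limma adjusted p = 0.00453), and the rise passed again after the removal (0.13, limma adjusted p = 0.0129). That call was lost without NTG replicate 2 or vehicle replicate 2 (adjusted p up to 0.109). In the cytosol, the Hsp110 proteins Hspa4 and Hspa4l exchange the nucleotide of Hsp70. Hspa4l had 3994, 3932 and 3845 normalised reads in the 3 NTG libraries, against 3046, 2809 and 3067 in the 3 vehicle libraries. Every NTG value exceeded every vehicle value (log2 fold change 0.40 ± 0.06, limma adjusted p = 4.22e-05). Hspa4 averaged 5728 ± 13.6 normalised reads in NTG and 4997 ± 168 in vehicle (log2 fold change 0.20 ± 0.05, limma adjusted p = 0.00673). Neither passed after it, with log2 fold changes of 0.08 for Hspa4l and 0.07 for Hspa4. The third Hsp110, Hsph1, which heat shock induces, averaged 5542 ± 346 normalised reads in NTG and 4995 ± 261 in vehicle. It was higher in every NTG library than in any vehicle library but did not pass (log2 fold change 0.15 ± 0.06, limma adjusted p = 0.0621; 0.05 after the removal), while edgeR on the recovered reads gave an adjusted p of 0.0442.

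Neither of the stress-inducible Hsp70 genes rose, and 1 of them fell. Hspa1a and Hspa1b lie side by side on chromosome 17 (34969359 to 34972156 and 34956429 to 34959238, both minus strand), and their coding sequences, of 1926 and 1929 bases, differ at 11 aligned positions (99.43% identity), so their counts may be split or shared between the copies. Hspa1a fell, with 235, 196 and 297 normalised reads in the 3 NTG libraries, against 281, 337 and 441 in the 3 vehicle libraries. The highest NTG value lay above the lowest vehicle value (log2 fold change -0.53 ± 0.17, limma adjusted p = 0.0286). This call was lost without NTG replicate 1, NTG replicate 2, vehicle replicate 2 or vehicle replicate 3 (adjusted p up to 0.121), and again after the removal (-0.26, limma adjusted p = 0.341). Hspa1b had 358, 338 and 538 normalised reads in the 3 NTG libraries, against 438, 396 and 584 in the 3 vehicle libraries. It did not pass (log2 fold change -0.21 ± 0.20, limma adjusted p = 0.504), and its fold change had the opposite sign after the removal (0.04, limma adjusted p = 0.937). The summed reads of both copies were 593, 534 and 835 in NTG, against 719, 733 and 1025 in vehicle, groups that overlapped (two-sided exact permutation p = 0.3, before the removal). NTG replicate 3 and vehicle replicate 3 were the highest of their groups for Hspa1a, Hspa1b and Dnajb1 alike. The 250 bases upstream of both genes are shown because the promoters of these genes are known targets of heat shock factor 1. They are identical at 247 positions and come from RefSeq (GRCm38.p6, chr17:34972157-34972406 for Hspa1a and chr17:34959239-34959488 for Hspa1b, minus strand, read 5′ to 3′). Capitals mark the 1 match to a heat shock element of 2 units, GAANNTTC with N as any base, which begins 104 bases before the start in each.
Hspa1a: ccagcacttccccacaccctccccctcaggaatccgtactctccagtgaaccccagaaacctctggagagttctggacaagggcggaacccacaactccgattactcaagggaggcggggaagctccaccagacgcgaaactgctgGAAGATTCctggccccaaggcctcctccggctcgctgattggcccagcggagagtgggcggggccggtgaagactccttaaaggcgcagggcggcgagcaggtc
Hspa1b: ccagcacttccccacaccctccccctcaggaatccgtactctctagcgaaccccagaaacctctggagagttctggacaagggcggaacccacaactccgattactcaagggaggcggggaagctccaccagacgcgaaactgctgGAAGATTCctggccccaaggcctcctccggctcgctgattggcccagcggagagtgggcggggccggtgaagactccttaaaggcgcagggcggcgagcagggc

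Among the remaining Hsp70 genes of the cytosol, Hspa2, Hspa14 and Hspa1l did not pass, nor did Hspa12b, with log2 fold changes between -0.13 and 0.04. The organelle Hsp70 genes rose. Hspa5 encodes BiP, the Hsp70 of the ER, and had 7527, 6850.3 and 7586 normalised reads in the 3 NTG libraries, against 5931, 5771 and 6394 in the 3 vehicle libraries. NTG was higher without overlap (log2 fold change 0.28 ± 0.06, limma adjusted p = 0.000955), and the rise did not pass after the removal (0.13, limma adjusted p = 0.124). Hspa13, a microsomal Hsp70 relative, rose more than any other member that passed, with 644, 609 and 632 normalised reads in the 3 NTG libraries, against 419.5, 401 and 444 in the 3 vehicle libraries. The gap between the groups was wider than the range within either (log2 fold change 0.58 ± 0.09, limma adjusted p = 9.19e-05). Its transcript is among the poorest in GC (39.8%), and after the removal it passed with a smaller change (0.29, limma adjusted p = 0.0353). This call was lost without NTG replicate 1, NTG replicate 2, NTG replicate 3, vehicle replicate 1 or vehicle replicate 2 (adjusted p up to 0.176). Hspa9, the mitochondrial Hsp70 that pulls proteins through the import channel, averaged 4589 ± 271 normalised reads in NTG and 3968 ± 173 in vehicle (log2 fold change 0.21 ± 0.06, limma adjusted p = 0.0108). The rise did not pass without NTG replicate 2 or vehicle replicate 2 (adjusted p up to 0.0869), nor after the removal (0.07, limma adjusted p = 0.394).

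**Figure D5:**
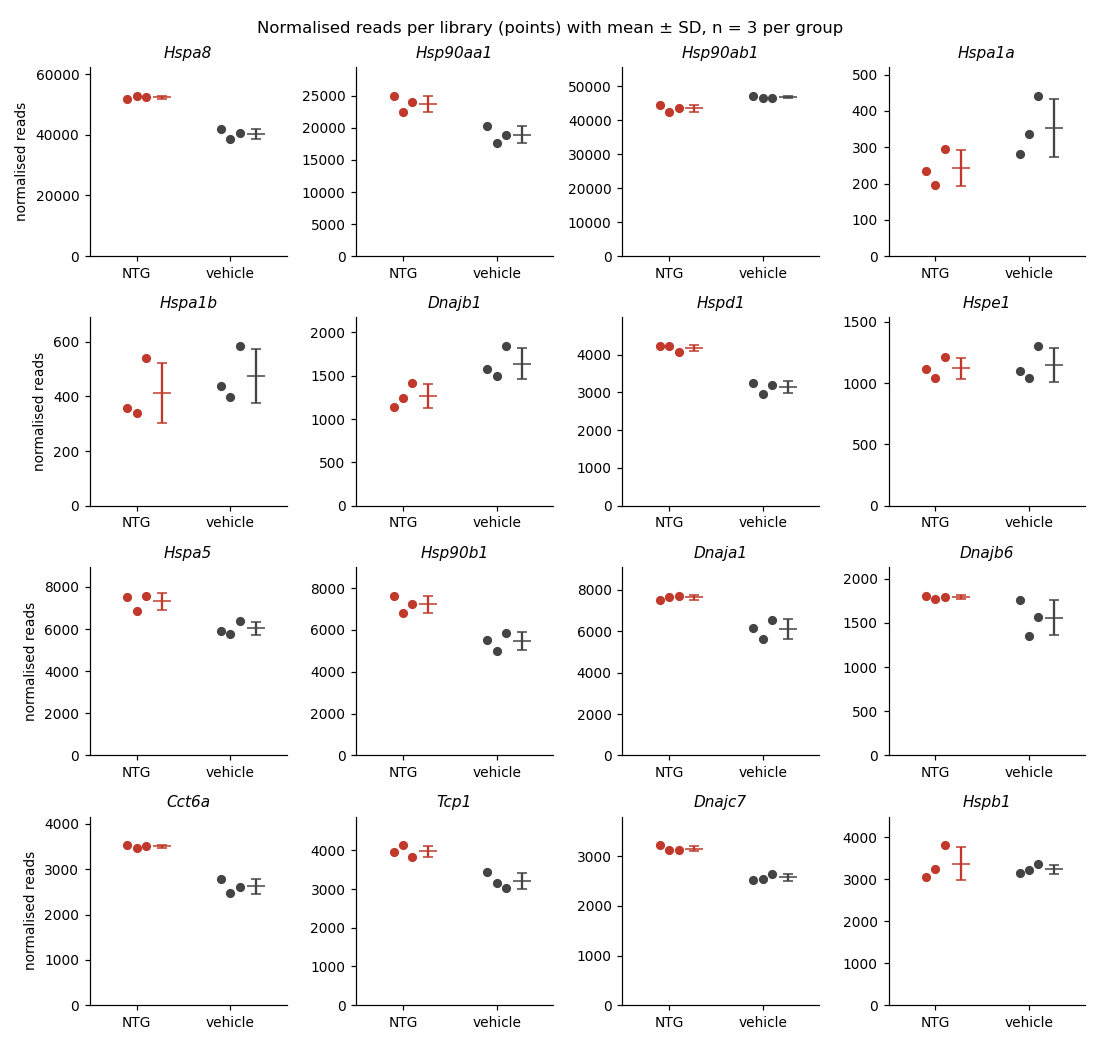
Normalised reads in each library for 16 chaperone genes (points, NTG left and vehicle right, axes from 0), with the mean ± SD of 3 libraries beside them. Hspa8, Hspd1, Cct6a and Dnajc7 have 3 NTG points close together above the vehicle points, Hsp90ab1 lies below vehicle in NTG, and Hspa1a, Hspa1b, Hspe1 and Hspb1 overlap between groups.

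The 2 cytosolic Hsp90 genes gave fold changes of opposite sign, and 1 of them passed. Hsp90aa1 (chromosome 12, 110691036 to 110696395, minus strand), which encodes the stress-responsive alpha form, had 24956, 22417 and 23993 normalised reads in the 3 NTG libraries, against 20252, 17684 and 18950.0 in the 3 vehicle libraries. All NTG values lay above all vehicle values (log2 fold change 0.33 ± 0.05, limma adjusted p = 0.000139). The rise passed in all leave-one-out fits, and again with a smaller change after the removal (0.14, limma adjusted p = 0.0318), then not without NTG replicate 1, NTG replicate 3, vehicle replicate 2 or vehicle replicate 3 (adjusted p up to 0.2). Hsp90ab1 (chromosome 17, 45567778 to 45573261, minus strand), the constitutive beta form, had 44439, 42472 and 43617 normalised reads in the 3 NTG libraries, against 47021, 46580.4 and 46526 in the 3 vehicle libraries. Every NTG value lay below every vehicle value, and the difference did not pass (log2 fold change -0.10 ± 0.04, limma adjusted p = 0.055; after the removal -0.09, limma adjusted p = 0.0577). The ratio of Hsp90aa1 to Hsp90ab1 reads was 0.562, 0.528 and 0.550 in NTG, against 0.431, 0.380 and 0.407 in vehicle. The groups did not overlap (two-sided exact permutation p = 0.1, the minimum with 3 libraries a side). Over the 3 such quantities computed, all chosen after values were seen, the Benjamini-Hochberg adjusted permutation p was 0.15. The log2 difference of this ratio was 0.43, and 0.22 from the genes' values after the removal. Hsp90b1, which encodes the Hsp90 of the ER (Grp94), had 7641, 6812 and 7240.3 normalised reads in the 3 NTG libraries, against 5525, 5014 and 5866 in the 3 vehicle libraries. The groups did not overlap (log2 fold change 0.40 ± 0.06, limma adjusted p = 7.8e-05). Its rise passed again after the removal (0.22, limma adjusted p = 0.0107), though not without NTG replicate 3 or vehicle replicate 2 (adjusted p up to 0.0846).

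Of 13 members that work at or in the ER, 8 rose and 0 fell, beside 12.3% and 13.5% of all genes. The median GC content of the 13 was 45.6%. Coding genes in the nearest bin of GC content had a median log2 fold change of 0.17 and an upper quartile of 0.28. The 13 members had a median of 0.26, and of 0.06 after the removal. After the removal 2 of the 8, Hsp90b1 and Hspa13, passed again and 0 of the 13 fell, beside 4.15% and 5.25% of all genes. Dnajc10, a reductase that opens disulfides for degradation, averaged 1890.0 ± 89.6 normalised reads in NTG and 1499 ± 51.0 in vehicle (log2 fold change 0.33 ± 0.06, limma adjusted p = 0.000673; after it 0.17, limma adjusted p = 0.0726). Dnajc3, an inhibitor of the kinase PERK, had 2106, 1966 and 1858 normalised reads in the 3 NTG libraries, against 1630.2, 1558 and 1746 in the 3 vehicle libraries. NTG was higher in each library (log2 fold change 0.26 ± 0.07, limma adjusted p = 0.00591; after it 0.06, limma adjusted p = 0.62). The rest of the 8 were Dnajb14, Dnajc1 and Dnajc18, with log2 fold changes of 0.20, 0.33 and 0.23 before the removal. After it none of the 3 passed, with -0.04 for Dnajb14, which turned its direction, 0.26 for Dnajc1 and 0.12 for Dnajc18. These 3 rises depended on single libraries. Dnajb14 did not pass without NTG replicate 1, NTG replicate 2 or vehicle replicate 2 (adjusted p up to 0.0718). Dnajc1 was lost without NTG replicate 1, NTG replicate 2, NTG replicate 3 or vehicle replicate 3 (adjusted p up to 0.198), and Dnajc18 without NTG replicate 2 (adjusted p = 0.0933). Dnajb9 and Dnajb11, co-chaperones of BiP, did not pass; Dnajb9 stood at 568 ± 37.3 normalised reads in NTG and 476 ± 42.6 in vehicle with limma adjusted p = 0.0501, and Dnajb11 at 885 ± 50.8 normalised reads in NTG and 862 ± 104 in vehicle.

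The ER members with the ER stress response element, which is CCAAT followed after 9 bases by CCACG, are shown with its matches in capitals. In windows of 250 bases before to 50 after the start, which the RefSeq table gives for 62 of the 76 genes, 3 members held it on either strand (4.84%), beside 21 of the 13675 tested genes with a window (0.154%). They were Hspa5, Hsp90b1 and Dnajc3, and all 3 rose before the removal and 1, Hsp90b1, after it. The element was searched because ER stress targets were known among the members, so the higher share was foreseen and is no independent result. The Hspa5 site (chr2:34772020-34772048, plus strand) begins 65 bases before the start. The Dnajc3 stretch (chr14:118937682-118937931, plus strand) has 1 match at 105 bases. The Hsp90b1 stretch (chr10:86705510-86705694, minus strand), which ends 65 bases short of the start, has 2 matches, at 212 bases and, on the other strand, at 107. A match describes letters and not binding.
Hspa5: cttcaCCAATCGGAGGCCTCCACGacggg
Dnajc3: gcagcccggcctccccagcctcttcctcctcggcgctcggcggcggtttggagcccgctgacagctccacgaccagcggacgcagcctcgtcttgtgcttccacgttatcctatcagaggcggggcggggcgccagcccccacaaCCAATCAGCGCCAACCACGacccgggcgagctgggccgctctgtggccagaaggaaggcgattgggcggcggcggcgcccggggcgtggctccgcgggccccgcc
Hsp90b1: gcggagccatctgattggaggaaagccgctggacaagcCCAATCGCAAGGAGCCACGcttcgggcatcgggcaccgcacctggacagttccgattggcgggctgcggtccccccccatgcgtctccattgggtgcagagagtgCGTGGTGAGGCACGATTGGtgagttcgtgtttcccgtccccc

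The mitochondrial chaperonin genes are neighbours that start from a shared region on chromosome 1, and they differed. Hspd1 (55077833 to 55088243, minus strand), the Hsp60 ring, had 4228, 4222 and 4068 normalised reads in the 3 NTG libraries, against 3259, 2949 and 3205 in the 3 vehicle libraries. All NTG values lay above all vehicle values (log2 fold change 0.41 ± 0.06, limma adjusted p = 3.45e-05), also after the removal (0.30, limma adjusted p = 0.000187), and the rise passed in all leave-one-out fits of both kinds. Hspe1 (55088148 to 55091317, plus strand), the Hsp10 lid, had 1117, 1038 and 1209 normalised reads in the 3 NTG libraries, against 1095, 1045 and 1302 in the 3 vehicle libraries and did not pass (log2 fold change -0.03 ± 0.08, limma adjusted p = 0.836; after the removal 0.03, limma adjusted p = 0.868). The Hspd1 to Hspe1 ratio of reads was 3.79, 4.07 and 3.37 in NTG, against 2.98, 2.82 and 2.46 in vehicle (two-sided exact permutation p = 0.1, the smallest possible; 0.15 adjusted over the 3 quantities). Its log2 difference was 0.44, and 0.27 after the removal. The gene models overlap by 96 bases on opposite strands. Among the 8 mitochondrial members 3 rose and 0 fell, beside 12.3% and 13.5% of all genes. The 3 were Hspd1, Hspa9 and the import motor subunit Dnajc15 (log2 fold change 0.29, and after the removal 0.10, limma adjusted p = 0.616). The rise of Dnajc15 did not pass without NTG replicate 1, NTG replicate 2, NTG replicate 3, vehicle replicate 1 or vehicle replicate 2 (adjusted p up to 0.155), and that of Hspa9 as given above. After the removal Hspd1 rose and Dnajc19, another subunit of the import motor, fell (-0.41, limma adjusted p = 0.0372), and this did not pass without NTG replicate 1, NTG replicate 2, NTG replicate 3, vehicle replicate 2 or vehicle replicate 3 (adjusted p up to 0.165). Its gene lies opposite Fxr1, which had 8.60 times its normalised reads.

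Of the 8 subunits of the CCT ring, which folds actin and tubulin, 6 rose and 0 fell, beside 12.3% and 13.5% of all genes. In 7 the NTG values lay above vehicle without overlap, beside 19.7% of all genes. The GC contents of the 8 subunits ran from 43.3 to 54.0%, with a median of 47.4%. Cct6a, the zeta subunit, had 3527, 3478 and 3503 normalised reads in the 3 NTG libraries, against 2786, 2470.3 and 2602 in the 3 vehicle libraries. Its NTG values lay within a narrow range above vehicle (log2 fold change 0.42 ± 0.06, limma adjusted p = 3.77e-05). Tcp1, the alpha subunit, had 3947, 4128 and 3832 normalised reads in the 3 NTG libraries, against 3435, 3159 and 3021 in the 3 vehicle libraries. Its groups did not overlap either (log2 fold change 0.31 ± 0.06, limma adjusted p = 0.00068). These were the largest changes in the ring, and the rises of Cct6a and Tcp1 passed in all leave-one-out fits. Cct8 averaged 4264 ± 169 normalised reads in NTG and 3629.7 ± 41.6 in vehicle (log2 fold change 0.23 ± 0.05, limma adjusted p = 0.00327; after the removal 0.03, limma adjusted p = 0.751). Cct5 averaged 4608 ± 22.8 normalised reads in NTG and 4063 ± 156 in vehicle (log2 fold change 0.18 ± 0.05, limma adjusted p = 0.0145). The rise of Cct5 did not pass without NTG replicate 2 or vehicle replicate 2 (adjusted p up to 0.079). Cct4 and Cct2 rose with log2 fold changes of 0.20 and 0.19; Cct2 averaged 3233 ± 152 normalised reads in NTG and 2828 ± 137 in vehicle. Cct4 did not pass without NTG replicate 2 (adjusted p = 0.0643), and Cct2 did not pass without NTG replicate 1, NTG replicate 2, vehicle replicate 2 or vehicle replicate 3 (adjusted p up to 0.109). After the removal Cct4 and Cct2 did not pass, at 0.05 and 0.09. Cct3 did not pass in either fit (0.11 before and 0.07 after), and Cct7, the ring subunit richest in GC at 54.0%, did not pass before the removal (0.02). After the removal 4 subunits rose, beside 4.15% of all genes tested. They were Cct6a (0.32, limma adjusted p = 0.000122), Tcp1 (0.21, limma adjusted p = 0.00573), Cct5 (0.16, limma adjusted p = 0.0229) and Cct7 (0.14, limma adjusted p = 0.0405). Of these, Cct6a passed in all 6 leave-one-out fits. Tcp1 was lost without NTG replicate 2 (adjusted p = 0.0615). Cct5 was lost without NTG replicate 2, NTG replicate 3, vehicle replicate 1 or vehicle replicate 2 (adjusted p up to 0.12), and Cct7 without NTG replicate 1, NTG replicate 2, NTG replicate 3 or vehicle replicate 2 (adjusted p up to 0.202). Cct6b, a testis form of the subunit, stood at 17.2 ± 2.59 normalised reads in NTG and 8.87 ± 3.45 in vehicle and lies opposite Zfp830, which had 15.8 times its normalised reads.

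Dnaja proteins are the general partners of Hsp70 in the cytosol. Dnaja1 (chromosome 4, 40722468 to 40734965, plus strand) had 7513, 7658 and 7715 normalised reads in the 3 NTG libraries, against 6166, 5621 and 6552 in the 3 vehicle libraries. The NTG values lay close together above vehicle (log2 fold change 0.32 ± 0.06, limma adjusted p = 0.000276). Dnaja2 averaged 2671 ± 179 normalised reads in NTG and 2310.3 ± 51.6 in vehicle (log2 fold change 0.21 ± 0.06, limma adjusted p = 0.0165). The rise of Dnaja2 did not pass without NTG replicate 1, NTG replicate 2 or vehicle replicate 2 (adjusted p up to 0.125). Their GC contents were 41.2% for Dnaja1 and 42.6% for Dnaja2, and neither passed after the removal, with log2 fold changes of 0.07 for Dnaja1 and -0.0069 for Dnaja2. Dnaja4 and the mitochondrial Dnaja3 did not pass.

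The Dnajb genes gave changes in both directions. Dnajb1 (chromosome 8, 83608175 to 83612653, plus strand), the heat-inducible Hsp40, had 1138, 1237 and 1414 normalised reads in the 3 NTG libraries, against 1578, 1496 and 1843 in the 3 vehicle libraries. It lay below vehicle in every NTG library (log2 fold change -0.38 ± 0.09, limma adjusted p = 0.00341), passed in all 6 leave-one-out fits, and was the only member that fell both before and after the removal (-0.30, limma adjusted p = 0.0343). After it the fall did not pass without NTG replicate 1, NTG replicate 2, vehicle replicate 1 or vehicle replicate 3 (adjusted p up to 0.141). Dnajb4, its close relative, had 1316, 1328 and 1245 normalised reads in the 3 NTG libraries, against 988, 899 and 1023 in the 3 vehicle libraries. It was higher in every NTG library (log2 fold change 0.42 ± 0.07, limma adjusted p = 0.000259), and did not pass after the removal (0.12, limma adjusted p = 0.286). Its transcript has the lowest GC content of all members, 39.0%. Dnajb14, of the ER membrane, averaged 2844 ± 128 normalised reads in NTG and 2468 ± 104 in vehicle (log2 fold change 0.20 ± 0.06, limma adjusted p = 0.0147). Its fold change had the opposite sign after the removal (-0.04, limma adjusted p = 0.686). Dnajb6, which keeps polyglutamine proteins from aggregating, had 1809, 1771 and 1795 normalised reads in the 3 NTG libraries, against 1754, 1358 and 1566 in the 3 vehicle libraries. The groups did not overlap, and the difference did not pass (log2 fold change 0.21 ± 0.08, limma adjusted p = 0.0524; after the removal 0.22, limma adjusted p = 0.0586). Dnajb2, Dnajb5, Dnajb12, Dnajb13 and Dnajb3 did not pass either; Dnajb3 lies within the Ugt1a cluster, whose genes were listed at 9.96 to 14.9 times its normalised reads on the opposite strand.

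Of the 26 Dnajc genes 8 rose and 0 fell, beside 12.3% and 13.5% of all genes. After the removal 1 rose and 2 fell, near the shares of 4.15% and 5.25% over all genes. Dnajc7 (chromosome 11, 100582818 to 100620292, minus strand), which hands clients between Hsp70 and Hsp90, had 3223, 3125 and 3127 normalised reads in the 3 NTG libraries, against 2531, 2544 and 2652 in the 3 vehicle libraries. The groups stood far apart for their spread (log2 fold change 0.29 ± 0.06, limma adjusted p = 0.000611). At a GC content of 50.9% its change was the same size after the removal (0.31, limma adjusted p = 0.000235), and it passed in all leave-one-out fits of both kinds. Over 9058 bases its gene lies opposite Cnp, a glial gene with 4.32 times its normalised reads. Dnajc13, an endosomal protein, averaged 2738 ± 84.1 normalised reads in NTG and 2261 ± 34.1 in vehicle (log2 fold change 0.28 ± 0.06, limma adjusted p = 0.00131; after the removal 0.10, limma adjusted p = 0.203). Dnajc6, neuronal auxilin, had 3944, 3882 and 3743 normalised reads in the 3 NTG libraries, against 3292, 3499 and 3396 in the 3 vehicle libraries. NTG was higher without overlap (log2 fold change 0.18 ± 0.05, limma adjusted p = 0.0166; after the removal 0.07, limma adjusted p = 0.403), and the rise was lost without NTG replicate 1, NTG replicate 2 or vehicle replicate 1 (adjusted p up to 0.0738). Dnajc5, cysteine string protein, averaged 5109 ± 161 normalised reads in NTG and 4940.3 ± 186 in vehicle and did not pass (log2 fold change 0.05 ± 0.05, limma adjusted p = 0.546; after the removal -0.02, limma adjusted p = 0.872). The 18 Dnajc genes that did not pass had log2 fold changes between -0.30 (Dnajc4) and 0.38 (Dnajc22), 7 above 0 and 11 below. Dnajc2, which sits on the ribosome, averaged 441 ± 56.9 normalised reads in NTG and 508 ± 80.7 in vehicle and fell only after the removal (-0.37, limma adjusted p = 0.0229), and not without NTG replicate 2, NTG replicate 3 or vehicle replicate 1 (adjusted p up to 0.141).

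None of the 6 Hspb genes, grouped by symbol as small heat shock proteins, passed before the removal. Hspb11, which has this group by its symbol only, averaged 102 ± 4.93 normalised reads in NTG and 109 ± 4.82 in vehicle. Hspb1 (chromosome 5, 135887919 to 135889563, plus strand), also called Hsp25, is abundant in sensory neurons and heat-inducible. It had 3056, 3234 and 3804 normalised reads in the 3 NTG libraries, against 3137, 3212 and 3352 in the 3 vehicle libraries. The groups overlapped (log2 fold change 0.05 ± 0.07, limma adjusted p = 0.637). With the highest GC content of the members (61.7%) it lay in the third where 25% of coding genes fell, and after the removal it rose (0.42, limma adjusted p = 4.79e-06), also in all 6 leave-one-out fits. Hspb8, the partner of Bag3 in autophagy, averaged 4839 ± 193 normalised reads in NTG and 4687 ± 223 in vehicle (log2 fold change 0.05 ± 0.06, limma adjusted p = 0.583; after the removal 0.12, limma adjusted p = 0.0975). Heart and skeletal muscle express Hspb2, Hspb6 and Hspb7. Hspb2 averaged 158 ± 25.3 normalised reads in NTG and 167 ± 19.5 in vehicle, Hspb6 210.5 ± 8.94 normalised reads in NTG and 242 ± 14.8 in vehicle, and Hspb7 14.9 ± 1.65 normalised reads in NTG and 9.29 ± 6.58 in vehicle. Hspb2 lies wholly opposite Cryab, another small heat shock protein gene outside the symbols used, which had 35.8 times its normalised reads. Hspbp1, the Hsp70-binding factor, fell, with 1504, 1528 and 1646 normalised reads in the 3 NTG libraries, against 1836, 2080.2 and 2109.6 in the 3 vehicle libraries. All NTG values lay below all vehicle values (log2 fold change -0.36 ± 0.07, limma adjusted p = 0.000559). At a GC content of 59.9% it did not pass after the removal (-0.07, limma adjusted p = 0.495).

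Heat shock elements were searched in the same windows of 62 members, because targets of heat shock factor 1 were known among the members. Higher shares were thus foreseen and are no independent result, and a match describes letters and not binding. The 2-unit element was found in 9 members (14.5%), beside 5.76% of the tested genes with a window. The longer 3-unit form, which is the same 8 letters with a further GAA 2 bases after them or TTC 2 bases before them, was found in 3 (4.84%), beside 0.410%, and each such match contains a 2-unit match. Of the 22 rises with a window 1 held the 2-unit element, Dnaja1; of the 3 falls 1, Hspa1a; and of the 37 that did not pass 7, Hspa1b, Hspb1, Hspb8, Hspe1, Hsph1, Dnajb6 and Dnajc27. The 3-unit form stood in Hspe1, Hsph1 and Dnajb6, none of which passed. No window is in the table for Hspa8, Hsp90aa1, Hsp90ab1 and 11 other members. The stretch of Hspb1 (chr5:135887669-135887918, plus strand) and the 3-unit sites of Hspe1 (chr1:55088053-55088082, plus strand, inside the Hspd1 gene model) and Dnajb6 (chr5:29735844-29735872, plus strand) are shown, with matches in capitals, because these genes held the most or the longest matches and did not pass before the removal. The matches in Hspb1 begin 117 and 97 bases before the start, in Hspe1 overlapping matches begin at 89 and 84, and in Dnajb6 the match begins at 46.
Hspb1: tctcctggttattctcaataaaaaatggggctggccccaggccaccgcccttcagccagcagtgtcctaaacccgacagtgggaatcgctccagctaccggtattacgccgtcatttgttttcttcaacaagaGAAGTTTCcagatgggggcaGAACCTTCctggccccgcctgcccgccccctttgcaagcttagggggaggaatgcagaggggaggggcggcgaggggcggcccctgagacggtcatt
Hspe1: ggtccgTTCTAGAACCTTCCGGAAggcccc
Dnajb6: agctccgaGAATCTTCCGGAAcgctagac

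The genes around the chaperones, from lists written for this tissue, gave counts in both directions. Over all genes tested 12.3% rose and 13.5% fell, and 4.15% and 5.25% after the removal. Of 5 heat shock factors and regulators 0 rose and 1 fell, Hsf4 (778 ± 68.5 normalised reads in NTG and 971 ± 72.3 in vehicle; log2 fold change -0.32, and 0.03 after the removal, where it did not pass; highest limma adjusted p of the leave-one-out fits 0.0592). Hsf1, the main heat shock factor, averaged 769 ± 51.3 normalised reads in NTG and 868 ± 54.2 in vehicle and did not pass (log2 fold change -0.18 ± 0.08, limma adjusted p = 0.116; after the removal 0.06, limma adjusted p = 0.69). After the removal 0 rose and 1 fell, Hsbp1, a binding protein of the factor (-0.20, limma adjusted p = 0.0224). The list of Hsp90 and Hsp70 cofactors held 29 genes, some of them chaperones themselves, such as Trap1 and Cryab. Of the 29, 5 rose (Cdc37l1, Ptges3, Chordc1, Ppid and Grpel2) and 4 fell (Stub1, Unc45a, Bag1 and Bag6), near the shares over all genes. The rises of Cdc37l1, Ptges3, Ppid and Grpel2 were lost with a library left out (limma adjusted p up to 0.115), and the others were not. The largest fold change of the 5 that rose was that of Chordc1, an Hsp90 partner. It averaged 1169.5 ± 62.3 normalised reads in NTG and 827 ± 106 in vehicle (log2 fold change 0.51 ± 0.09, limma adjusted p = 0.000215) and did not pass after the removal (0.10, limma adjusted p = 0.437). Stub1, the ubiquitin ligase CHIP, fell (2114 ± 168 normalised reads in NTG and 2731 ± 205 in vehicle; log2 fold change -0.37 ± 0.07, limma adjusted p = 0.000543), and not after the removal (-0.04, limma adjusted p = 0.686). After the removal 2 genes of this list rose, the immunophilin gene Fkbp4 (0.26, limma adjusted p = 8.39e-05) and the mitochondrial Hsp90 gene Trap1 (0.18, limma adjusted p = 0.0486). The exchange factor gene Bag1 was the 1 that fell (-0.17, limma adjusted p = 0.0444).

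Of 14 prefoldin and tubulin-folding genes that work with CCT, 4 rose (Vbp1, Pdcl, Tbce and Txndc9) and 2 fell (Tbca and Tbcc). The shares over all genes tested were 12.3% and 13.5%, and 4.15% and 5.25% after the removal. Tbce, which takes tubulin after the ring, averaged 643 ± 23.7 normalised reads in NTG and 437 ± 17.5 in vehicle and rose before and after the removal (log2 fold change 0.56 ± 0.09, limma adjusted p = 0.000111; after it 0.37, limma adjusted p = 0.00605). Tbca, another tubulin cofactor, averaged 934 ± 204 normalised reads in NTG and 1334 ± 70.1 in vehicle and fell in both (log2 fold change -0.53 ± 0.14, limma adjusted p = 0.0178; after it -0.72, limma adjusted p = 0.00122). Before it, the highest limma adjusted p with a library left out was 0.0931. No other gene of this list passed after the removal. The rises of Pdcl and Txndc9 before the removal were lost with a library left out (limma adjusted p up to 0.16 for Pdcl and 0.0602 for Txndc9). Among 16 genes of ER folding and the unfolded protein response, 5 rose (Canx, Pdia3, Pdia4, Pdia6 and Atf6) and 1 fell (Ppp1r15a), beside the same shares. Pdia3, Pdia4 and Ppp1r15a lost their calls with a library left out (limma adjusted p up to 0.143). Pdia6, a disulfide isomerase, and Atf6, a sensor of ER stress, passed again after the removal. Their log2 fold changes were then 0.16 for Pdia6 (limma adjusted p = 0.0482) and 0.22 for Atf6 (limma adjusted p = 0.0319). The ER stress effectors Ddit3, Atf4 and Xbp1 did not pass. Ddit3 averaged 440.2 ± 13.7 normalised reads in NTG and 481 ± 16.6 in vehicle, Atf4 2263 ± 95.7 normalised reads in NTG and 2383 ± 110.1 in vehicle, and Xbp1 1305 ± 52.3 normalised reads in NTG and 1428 ± 97.0 in vehicle.

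Cell type markers also differed between the groups, and fewer cells of a type and less RNA per cell cannot be told apart in these bulk libraries. As deposited, the counts and sums also hold the GC and length trend, so they do not measure cells or RNA alone. Over all genes tested 12.3% rose and 13.5% fell, and 4.15% and 5.25% after removal of that trend. Of 10 sensory neuron markers 2 rose and 4 fell (3 and 2 after the removal), and their summed level ran from 10391 to 10808.5 CPM, reads scaled to the library total, in NTG and from 11284 to 11554 in vehicle. Of 6 satellite glia markers 1 rose and 3 fell (0 and 1 after it), with sums of 4786 to 4967 CPM in NTG and 5321 to 5524 CPM in vehicle. Of 5 Schwann cell markers 1 rose and 3 fell (0 and 1 after it), with sums of 12619 to 14019 CPM in NTG and 13319 to 14719 CPM in vehicle. The Schwann cell sums overlapped between the groups and the other sums named so far did not. Among 13 skeletal muscle markers measured, 0 rose and 7 fell (0 and 5 after it), with sums of 69.2 to 75.2 CPM in NTG and 75.5 to 82.2 CPM in vehicle, most of it from Pvalb, which sensory neurons also express. None was at 0 in a whole group, while Tnnt3 and Tnnc2 were listed at 0 in 1 NTG library each. The 7 that fell were rare. Their means ran from 1.29 (Tnnc2) to 16.1 (Atp2a1) normalised reads in NTG and from 12.9 (Tnnt3) to 60.4 (Atp2a1) in vehicle. Before the removal, Acta1, Tnnt3 and Tnnc2 lost their calls with a library left out (limma adjusted p up to 0.17). Of 6 macrophage markers 0 rose and 2 fell (0 and 0 after it in limma), with sums of 82.9 to 94.3 CPM in NTG and 106 to 116 CPM in vehicle. Endothelial, smooth muscle and red cell markers overlapped between groups in their sums. The part of these differences in the results for the chaperone genes was not tested.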

How the data were processed

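Total RNA of trigeminal ganglia was enriched for mRNA with poly-T beads, turned into libraries that keep strand, and read from both ends, per the labels' protocols. The submitters' processing notes name FastQC, HISAT2 and GRCm38. How reads were counted, with which strand setting and annotation, is not given in the sources used here. The authors deposited a signal per gene and library: each value was a whole read count times a constant of the library (0.867 to 1.10 per read), and 100% of values were whole within 0.01 read. Recovered totals were 19293926, 19248592 and 23774244 reads in NTG and 18813027, 20191300 and 18825239 in vehicle, so that 3 reads correspond to 0.126 to 0.159 CPM, a limit of counting error only.

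Values plus 1 were taken to log2 and fitted with limma-trend with robust moderation (limma 3.58.1, R 4.3.3) over the 17475 genes that reached 1 in 3 or more libraries. Errors beside fold changes are SE, those beside means SD over 3 libraries, and fold changes are NTG over vehicle on the log2(value + 1) scale. edgeR 4.0.16 (quasi-likelihood test), DESeq2 1.42.0 and limma-voom on the recovered reads, and fits without each library served as alternatives. So did the subtraction, in each library, of a smooth curve over GC content and transcript length (mgcv 1.9.3; both from GENCODE transcripts, found for 93.2% of genes and all 76 members). Scripts were tested on simulated data. Promoter windows were read from a RefSeq table of GRCm38.p6.

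The members and gene lists were chosen with earlier results of these data known. Genes chosen for statistics were 21 by role and, in each family, up to 4 with the smallest limma p among those that passed. Other members that passed are named with their fold change, and ranges cover the rest. Beyond this rule, values or p-values were added for some other members, among them Hspa12a, Dnajb9, Dnajc2, Dnajc15, Dnajc19 and Cct7. Same-numbered NTG and vehicle libraries did not deviate together, so no pairing was used. A gene of the cofactor list is not reported here and was left out of its counts.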

Additional observations from a re-analysis of the deposited data

How the results depend on the processing

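Of the 25 alternatives, 6 (the GC and length trend removed with each library left out) were chosen after seeing the data. The 28 rises and 3 falls among the chaperone genes became 30 and 3 with edgeR on the recovered reads, which gave 2261 for all genes that rose and 2302 for all genes that fell, 28 and 3 with DESeq2, and 31 and 4 after quantile normalization. No member was called in the opposite direction in any fit, and the members' median log2 fold change stayed between 0.05 and 0.13.

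With a minimum fold of 1.2, the members that rose or fell numbered 0 and 0, all genes that rose 77 and all genes that fell 236, since it asks more of each gene. Removing the GC and length trend gave 12 members that rose, of which 10 had also risen before and Hspb1 and Cct7 had not. It gave 676 for all genes that rose and 854 for all genes that fell (2148 and 2364 before). Leaving out single libraries gave 18 to 28 members that rose and 2 to 4 that fell, and 1326 to 2256 and 1620 to 2422 for all genes. With the trend removed and, in order, NTG replicate 1, 2 and 3 and vehicle replicate 1, 2 and 3 left out, the members that rose numbered 9, 8, 7, 11, 6 and 12, and those that fell 3, 0, 1, 1, 2 and 2. In the same order, all genes that rose numbered 461, 288, 406, 719, 388 and 706, and all genes that fell 623, 456, 677, 848, 552 and 860. Of 850 values of the 34 genes chosen for statistics by role or smallest p, 606 kept direction and call, 178 no longer passed, 30 newly passed and 36 changed sign. Of the 36, 23 were of genes that did not pass in either fit (Hspa1b, Hspe1, Dnajc5, Hsph1 and Hspb1), 3 of them with the trend kept and a library left out. The other 13, all with the trend removed, were of genes that had passed: Dnaja2 (-0.0069 with and without the replicate block, and -0.0411 without NTG replicate 2, -0.0172 without vehicle replicate 1 and -0.0039 without vehicle replicate 2), Dnajb14 (-0.0424 with and without the block, and -0.0448 without NTG replicate 1, -0.0436 without NTG replicate 2, -0.0300 without NTG replicate 3, -0.0663 without vehicle replicate 2 and -0.0616 without vehicle replicate 3) and Cct8 (-0.0013 without vehicle replicate 1). The cause was not tested.

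The replicate numbers are shared by both groups, but same-numbered libraries had deviations that correlated at 0.004, -0.033 and -0.025, and none correlated best with its own number. With the replicate block, 31 members rose and 4 fell, and with 2481 for all genes that rose and 2773 for all genes that fell. With the block and the trend removed, these were 16 and 6, and 1002 and 1121. Depth limits the rarest members: Dnajb13 rests on 53 reads over the 6 libraries.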

Other observations

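Of 9 genes that control protein quality in mitochondria, the compartment of Hspd1, Hspe1 and Hspa9, 2 rose in NTG and 1 fell. Over all genes tested 12.3% rose and 13.5% fell. Yme1l1, an inner membrane protease, averaged 1821 ± 71.6 normalised reads in NTG and 1404 ± 89.3 in vehicle (log2 fold change 0.38 ± 0.07, limma adjusted p = 0.000358; after removal of the GC and length trend 0.04, limma adjusted p = 0.734). Afg3l2, another inner membrane protease, averaged 2375 ± 58.4 normalised reads in NTG and 2109.6 ± 16.3 in vehicle (log2 fold change 0.17 ± 0.06, limma adjusted p = 0.0331; after the removal 0.24, limma adjusted p = 0.00357), and its highest adjusted p with a library left out was 0.142. Clpp, a protease of the matrix, averaged 623 ± 19.0 normalised reads in NTG and 787 ± 59.8 in vehicle and fell (log2 fold change -0.33 ± 0.08, limma adjusted p = 0.00486; after the removal -0.09, limma adjusted p = 0.545). After the removal 1 gene of this list rose, Afg3l2, and 0 fell, beside 4.15% and 5.25% of all genes.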
